A study of Mus musculus with 18 samples.

Results

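The genes described here are 40 interferon-induced and antigen presentation genes, chosen by symbol and taken from whole mouse retinas with and without optic nerve crush. They fall into 7 roles: 4 guanylate-binding proteins, 5 transcription factors, 3 genes of RNA sensing, 16 antiviral effectors, 5 immunoproteasome genes, 3 genes of peptide loading and 4 genes of MHC class I. All 40 were on the array, on 50 probes, and all 40 were among the 25374 genes tested. Every member had Cy5 signal well above background on every array, except Ifi44, which had it on 3 of the 4 Cre-negative uncrushed arrays.

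Interferons are secreted proteins that bind receptors on neighbouring cells and, through JAK kinases, activate transcription factors of the STAT family. A complex that holds STAT2 and IRF9 binds the interferon-stimulated response element (ISRE), other STAT complexes bind the gamma-activated sequence (GAS), and both elements switch on antiviral genes and the MHC class I pathway. In that pathway the immunoproteasome cuts proteins into peptides, the TAP transporter carries them into the endoplasmic reticulum, and MHC class I molecules show them at the cell surface to CD8 T cells. In the healthy retina most cells show little MHC class I, and microglia, the resident macrophages, are among the cells that respond strongly to interferon.

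Map3k12 was floxed in every mouse, and its product is DLK, a stress kinase that signals axon injury to the nucleus. All of the mice, the Cre-negative littermates included, received tamoxifen at 10 to 12 weeks of age. The groups were Cre-positive crushed (5 arrays), Cre-positive uncrushed (5), Cre-negative crushed (3) and Cre-negative uncrushed (4), with retinas taken 3 days after crush of the optic nerve. Cre-positive mice carried a tamoxifen-inducible Cre recombinase under the broadly active CAG promoter, so the deletion was not limited to 1 cell type, and per the labels a small, variable amount of DLK protein remained. Each array compared Cy5-labelled retinal RNA with a Cy3-labelled pool of mouse reference RNA, and a level below is the log2 of Cy5 over Cy3, which is relative to that pool and cannot be compared between genes. 1 further Cre-negative array, uncrushed by its title and crushed by its description, was left out of every comparison. Replicate numbers below only count the arrays of a group in the order of the samples, and equal numbers in different groups mean no relation.

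The arrays had 68% to 76.2% of probes well above background, a median Cy5 signal of 240 to 297 intensity units over a background of 72.5 to 84, and 0 saturated spots. Map3k12 averaged 2.03 ± 0.20 (SD, n = 5) in Cre-positive crushed against 2.50 ± 0.16 (SD, n = 3) in Cre-negative crushed retinas, and 2.0 ± 0.17 (SD, n = 5) in Cre-positive uncrushed against 2.43 ± 0.16 (SD, n = 4) in Cre-negative uncrushed retinas. These differences of -0.47 and -0.43 did not pass the test over all genes (limma adjusted p = 0.0596 and 0.881), and whether the probe lies in the deleted part is not given in the sources used here. No label states that samples came from separate animals, and the uninjured eye served as control without a label that ties it to a crushed one, so p-values measure the spread between these samples. In RNA of a whole retina, fewer cells of a type and less RNA per cell cannot be told apart. The number of arrays limits the precision. All 11 ganglion cell markers and all 10 Müller glia and astrocyte markers listed passed the filter.

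The sequences below are the members' promoters, shown because the ISRE and GAS are the elements by which interferon signalling is known to reach these genes. In the RefSeq promoter table (build GRCm38.p6) 33 of the 40 members had an entry, and Gbp6, Nlrc5, Dhx58, Usp18, Rtp4, Parp14 and Tap2 had none. The 250 bases before each start site were searched on both strands for the ISRE, written as GAAA, any 2 bases and GAAA, and for the GAS as TTCNNNGAA, counting overlapping matches. The ISRE letters were in 12 of the 33 members (36.4%) and in 936 of all 27025 genes with an entry (3.46%). The GAS letters were in 6 of the 33 (18.2%) and in 2197 of all genes (8.13%), and both were in 3 members (9.09%) and 124 genes (0.459%). A match is a description of these letters, not a site.

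The ISRE letters were in all 3 guanylate-binding proteins with an entry (Gbp2, Gbp3, Gbp5), in 6 of 13 antiviral effectors (Ifit1, Ifit3, Isg15, Oas1a, Rsad2, Bst2), in 2 of 4 MHC class I genes (B2m, H2-T23) and in 1 of 4 transcription factors (Stat2). They were in 0 of 5 immunoproteasome genes, 0 of 2 genes of peptide loading and 0 of 2 of RNA sensing. The GAS letters were in Gbp5, Irf1, Ifit2, Oas1a, Bst2 and Psmb8. The next lines give 80 bases upstream of the start for members that the results below turn on, with Isg15 and Irf1 added as the textbook targets of the ISRE and of the GAS. Capitals mark the ISRE or GAS letters, and a longer capital run is overlapping matches. H2-K1 is shown as a member whose entry holds neither set of letters.
Gbp2: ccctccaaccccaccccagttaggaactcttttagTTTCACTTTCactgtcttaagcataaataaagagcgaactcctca
Gbp3: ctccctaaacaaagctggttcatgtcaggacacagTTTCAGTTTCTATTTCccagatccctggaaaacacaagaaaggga
Rsad2: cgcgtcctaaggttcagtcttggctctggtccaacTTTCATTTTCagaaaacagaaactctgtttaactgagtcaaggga
Bst2: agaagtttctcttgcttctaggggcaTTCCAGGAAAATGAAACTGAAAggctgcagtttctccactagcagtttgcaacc
Isg15: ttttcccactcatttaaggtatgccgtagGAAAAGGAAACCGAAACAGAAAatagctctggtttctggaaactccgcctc
H2-T23: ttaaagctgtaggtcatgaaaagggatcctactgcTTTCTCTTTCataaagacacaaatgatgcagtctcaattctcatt
H2-K1: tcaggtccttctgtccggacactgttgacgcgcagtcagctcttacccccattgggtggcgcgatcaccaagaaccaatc
B2m: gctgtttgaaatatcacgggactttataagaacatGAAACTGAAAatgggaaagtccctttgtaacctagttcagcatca
Psmb8: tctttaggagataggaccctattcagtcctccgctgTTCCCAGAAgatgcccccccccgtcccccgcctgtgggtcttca
Irf1: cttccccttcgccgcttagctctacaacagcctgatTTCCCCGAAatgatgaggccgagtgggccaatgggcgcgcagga

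These stretches lie at chr3:142620569-142620648 (plus strand) for Gbp2, chr3:142559964-142560043 (plus strand) for Gbp3, chr12:26456528-26456607 (minus strand) for Rsad2 and chr8:71537555-71537634 (minus strand) for Bst2. Isg15 is at chr4:156200846-156200925 (minus strand), H2-T23 at chr17:36032781-36032860 (minus strand), B2m at chr2:122147513-122147592 (plus strand), H2-K1 at chr17:34000334-34000413 (minus strand), Psmb8 at chr17:34198062-34198141 (plus strand) and Irf1 at chr11:53769888-53769967 (plus strand). In Gbp2, Gbp3, Rsad2 and H2-T23 the ISRE reads on the opposite strand (TTTC), in B2m, Bst2 and Isg15 on the gene's strand. Gbp3 has 2 overlapping ISRE matches, Bst2 has a GAS that runs into 2 overlapping ISRE matches, Isg15 has 3 overlapping ISRE matches, and Psmb8 and Irf1 have a GAS alone. The 12 members with ISRE letters had median crush responses of 0.50 in Cre-positive and 0.66 in Cre-negative retinas (log2), and the 21 members with an entry but without these letters had 0.32 and 0.37, a description with no test.

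The first question was how these genes responded to crush of the optic nerve in each genotype. In Cre-positive retinas 7 members rose and 0 fell, and in Cre-negative retinas 6 rose and 0 fell, at an adjusted p under 0.05 in limma. Over all genes 0.666% passed as higher and 0.0867% as lower in Cre-positive retinas (0.753% in either direction), and 1.34% passed as higher and 0.808% as lower in Cre-negative retinas (2.15% in either direction). Gbp2, Nlrc5, Psmb8 and H2-T23 rose in both genotypes. These counts depend on the spread that all 4 groups share in the fit. With only the groups compared, 1 member passed in Cre-positive and 27 in Cre-negative retinas. Over all genes 0.205% and 3.01% then passed in either direction. The median log2 change of the 40 members was 0.40 in Cre-positive and 0.45 in Cre-negative retinas, against 0.000274 and 0.0015 over all genes, and 39 of 40 members had a positive estimate in each genotype, against 50.1% and 50.5% of all genes. Unadjusted p was under 0.05 for 32 members in Cre-positive and 30 in Cre-negative retinas, against 9.52% and 13.3% of all genes.

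**Figure D1:**
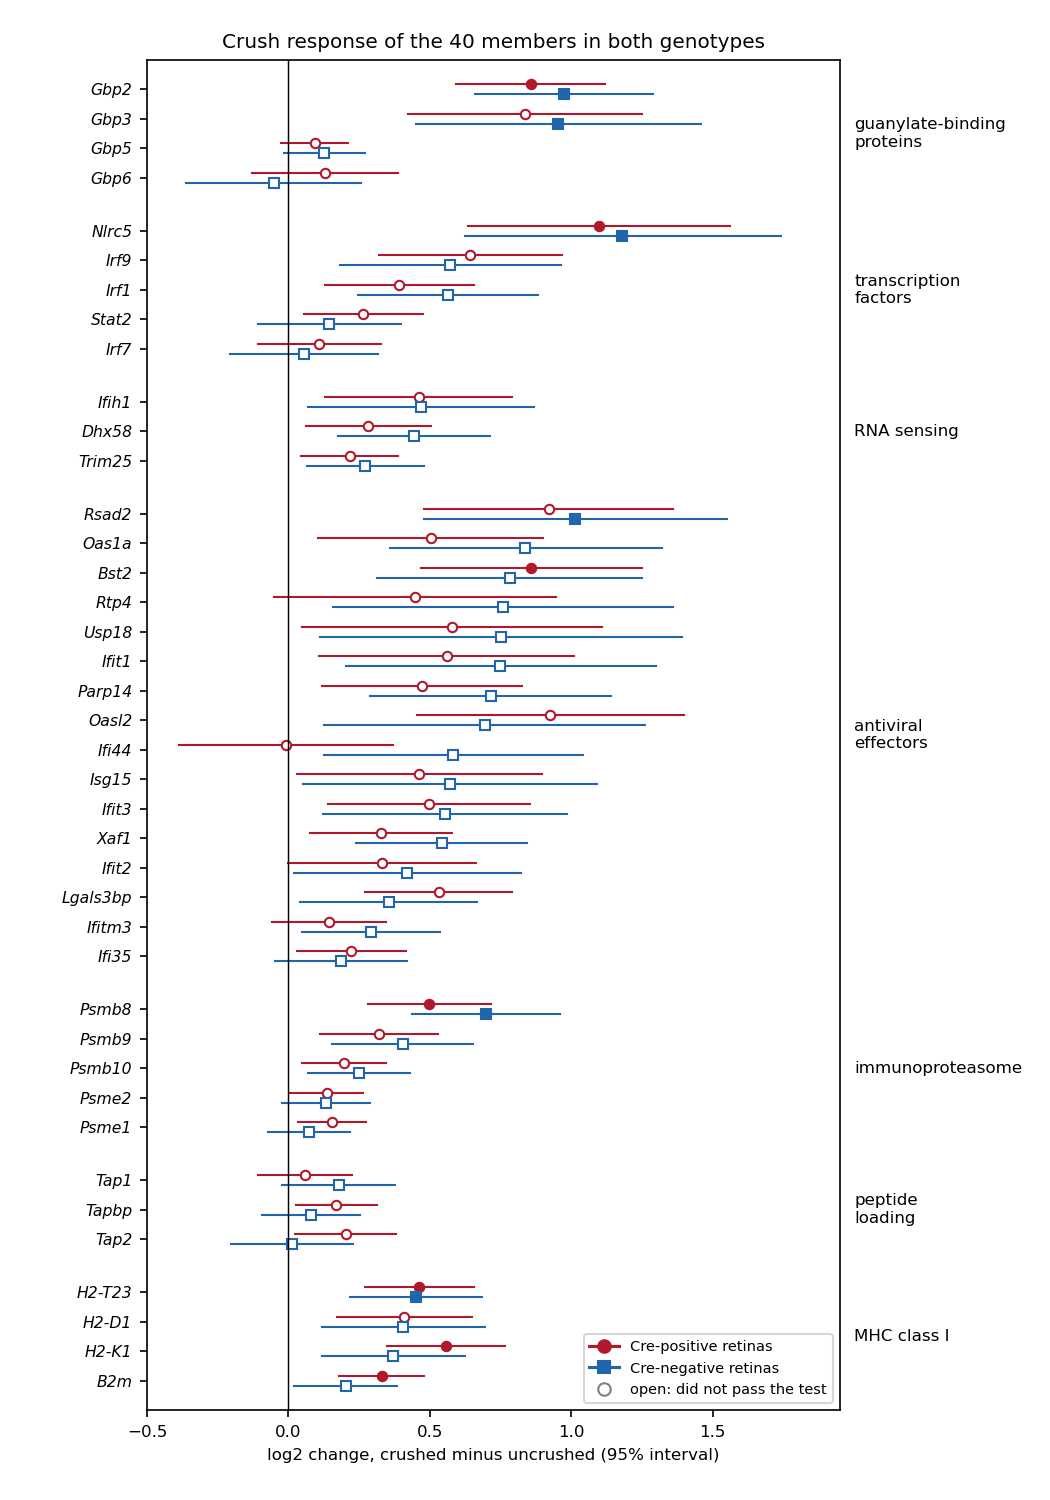
Log2 change after crush, crushed minus uncrushed, for each of the 40 members in Cre-positive (red circles, upper) and Cre-negative retinas (blue squares, lower), with 95% intervals and filled symbols for members that passed the test. Most estimates lie right of 0 in both genotypes, from 1.18 for Nlrc5 in Cre-negative retinas down to -0.05 for Gbp6, and peptide loading genes lie near 0.

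Among the guanylate-binding proteins, GTPases that interferon gamma induces and that attack pathogen-containing vacuoles, Gbp2 stood at -0.51, -1.06, -0.68, -0.99 and -0.35 on the 5 Cre-positive crushed arrays, against -1.65, -1.55, -1.31, -1.56 and -1.80 on the uncrushed ones. In Cre-negative retinas it stood at -0.85, -1.19 and -0.78 on the 3 crushed arrays, against -1.77, -1.96, -1.97 and -1.97 on the 4 uncrushed ones. All crushed arrays were above all uncrushed arrays of both genotypes. The rise was 0.86 on the log2 scale in Cre-positive retinas (1.81-fold, SE 0.13, adjusted p = 0.00175) and 0.98 in Cre-negative retinas (1.97-fold, SE 0.15, adjusted p = 0.000829), and Gbp2 had the lowest adjusted p of all members in both. Gbp3, a neighbour of Gbp2 in the same cluster on chromosome 3, stood at 0.03, -0.45, -0.11, -0.56 and 0.62 in Cre-positive crushed against -0.996, -1.28, -0.22, -1.13 and -1.03 in Cre-positive uncrushed retinas. Here the third uncrushed array reached into the crushed range, and the change of 0.84 did not pass (adjusted p = 0.0611). In Cre-negative retinas Gbp3 stood at -0.45, -0.47 and -0.18 on crushed against -1.24, -1.19, -1.35 and -1.51 on uncrushed arrays, without overlap, and rose by 0.95 (1.94-fold, SE 0.24, adjusted p = 0.0443). That call was lost in 17 of 34 alternative settings. Gbp5, which promotes inflammasome assembly and lies in the same cluster, did not pass at 0.09 in Cre-positive and 0.13 in Cre-negative retinas. Gbp6 stood at 0.13 and -0.05, and its second probe at 0.26 and 0.41.

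**Figure D2:**
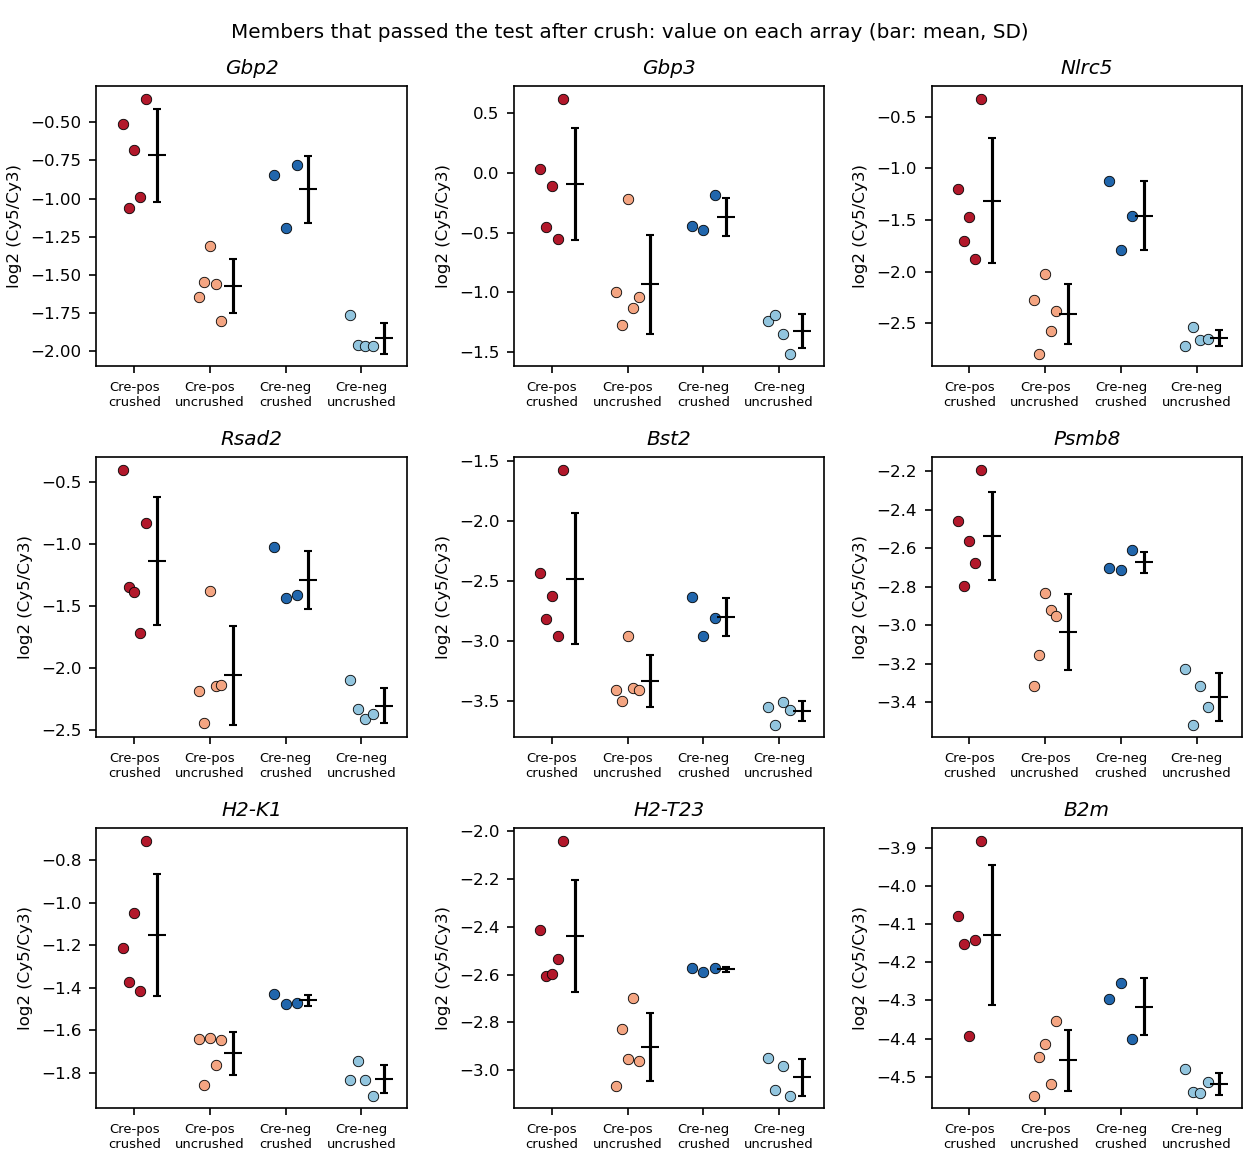
Log2 of Cy5 over Cy3 on each array for the 9 members that passed the test after crush in at least 1 genotype, with the groups Cre-positive crushed, Cre-positive uncrushed, Cre-negative crushed and Cre-negative uncrushed from left to right and a bar for the mean and SD. Crushed arrays lie above uncrushed ones in Cre-negative retinas for all 9 members, while replicate 3 of the Cre-positive uncrushed group reaches the crushed range for Gbp3 and Rsad2, and replicate 5 does so for B2m.

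Of the transcription factors, Nlrc5, the transactivator of the MHC class I genes, had the largest change of all 40 members in both genotypes. Nlrc5 stood at -1.20, -1.70, -1.47, -1.88 and -0.33 in Cre-positive crushed against -2.28, -2.79, -2.02, -2.58 and -2.38 in Cre-positive uncrushed retinas. In Cre-negative retinas it stood at -1.12, -1.79 and -1.46 on crushed against -2.72, -2.53, -2.66 and -2.65 on uncrushed arrays. Neither genotype had an overlap, and Cre-positive crushed replicate 5 was far above the others. Nlrc5 rose by 1.10 in Cre-positive retinas (2.14-fold, SE 0.22, adjusted p = 0.0235) and by 1.18 in Cre-negative retinas (2.27-fold, SE 0.27, adjusted p = 0.0221). Its second, dimmer probe, well above background on 14 of the 17 arrays, gave estimates of 0.01 and 0.16, so the 2 probes disagree in size, and with the probes averaged the rises were 0.55 and 0.67. The call was lost in 6 of 34 settings in Cre-positive and 5 of 34 in Cre-negative retinas. Irf9, the DNA-binding partner of STAT2, had estimates of 0.64 and 0.57 that did not pass (adjusted p = 0.0659 in Cre-positive and 0.148 in Cre-negative retinas), although all crushed arrays were above all uncrushed ones in both genotypes. Irf1, an early interferon gamma target, had estimates of 0.39 and 0.56 that did not pass (adjusted p = 0.231 and 0.0645). Stat2 (0.26 and 0.15) and Irf7 (0.11 and 0.06), the amplifier of type I interferon production, were smaller still. With only the groups compared, Irf9 and Irf1 passed in Cre-negative retinas (limma adjusted p = 0.0124 and 0.0157). In Cre-positive retinas they then did not pass (adjusted p = 0.247 and 0.443).

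In the fit of all groups the 3 genes of RNA sensing did not pass in either genotype, although the unadjusted p in limma was under 0.05 for all 3 in both. With only the groups compared, Ifih1 and Dhx58 passed in Cre-negative retinas (limma adjusted p = 0.00991 and 0.00434) and Trim25 did not (0.128). In Cre-positive retinas Ifih1, Dhx58 and Trim25 then did not pass (adjusted p = 0.559, 0.619 and 0.558). The values below are from the fit of all groups. Ifih1, which encodes the viral RNA sensor MDA5, stood at -0.21, -0.73, -0.50, -0.75 and 0.07 in Cre-positive crushed against -0.80, -1.21, -0.33, -1.04 and -1.06 in Cre-positive uncrushed retinas. In Cre-negative retinas Ifih1 stood at -0.64, -0.79 and -0.55 on crushed against -1.06, -1.03, -1.23 and -1.19 on uncrushed arrays. The Cre-positive groups overlapped and the Cre-negative ones did not, at changes of 0.46 and 0.47 (adjusted p = 0.289 and 0.279). Dhx58, which encodes the related LGP2, had estimates of 0.28 and 0.44, and Trim25, a ubiquitin ligase of the RIG-I sensor, of 0.22 and 0.27.

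The 16 antiviral effectors had median changes of 0.48 in Cre-positive and 0.64 in Cre-negative retinas, and 1 of them passed in each, Bst2 in Cre-positive and Rsad2 in Cre-negative retinas. These calls depend on the spread that all 4 groups share in the fit. With only the groups compared, all effectors but Ifitm3 and Ifi35 passed in Cre-negative retinas, Bst2 among them (limma adjusted p = 0.000665). In Cre-positive retinas Gbp2 was then the only member to pass, and Bst2 did not (adjusted p = 0.202). The effector values below are from the fit of all groups. Rsad2, which encodes viperin, an enzyme that makes a chain-terminating nucleotide against viral polymerases, stood at -0.40, -1.35, -1.39, -1.71 and -0.83 in Cre-positive crushed against -2.18, -2.44, -1.38, -2.15 and -2.14 in Cre-positive uncrushed retinas. In Cre-negative retinas Rsad2 stood at -1.02, -1.44 and -1.41 on crushed against -2.10, -2.33, -2.41 and -2.37 on uncrushed arrays. The third Cre-positive uncrushed array was within the crushed range, and the Cre-negative groups did not overlap. Rsad2 rose by 1.01 in Cre-negative retinas (2.02-fold, SE 0.25, adjusted p = 0.0435, call lost in 17 of 34 settings), and its change of 0.92 in Cre-positive retinas just missed the threshold (adjusted p = 0.0501). Bst2, which encodes tetherin, a protein that holds budding virions at the cell surface, stood at -2.43, -2.82, -2.62, -2.96 and -1.57 in Cre-positive crushed against -3.41, -3.51, -2.96, -3.40 and -3.41 in Cre-positive uncrushed retinas. The lowest crushed array and the highest uncrushed array were almost level. In Cre-negative retinas Bst2 stood at -2.64, -2.96 and -2.81 on crushed against -3.55, -3.70, -3.51 and -3.58 on uncrushed arrays, a clear gap. Bst2 rose by 0.86 in Cre-positive retinas (1.81-fold, SE 0.19, adjusted p = 0.0374, call lost in 16 of 34 settings), and its change of 0.78 in Cre-negative retinas did not pass (adjusted p = 0.0864).

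Oasl2, a ubiquitin-like member of the oligoadenylate synthetase family, was the effector with the largest estimate in Cre-positive retinas. It stood at -0.30, -0.58, 0.07, -0.94 and 0.57 in Cre-positive crushed against -1.13, -1.41, -0.53, -1.53 and -1.21 in Cre-positive uncrushed retinas, and at -0.81, -0.63 and -0.58 in Cre-negative crushed against -1.32, -1.08, -1.46 and -1.62 in Cre-negative uncrushed retinas. Only the Cre-negative groups were free of overlap, and neither change passed (0.93, adjusted p = 0.0688, and 0.69, adjusted p = 0.254). The remaining 13 effectors, among them Ifit1, Ifit2 and Ifit3, which bind viral RNA or its partners, Isg15, a ubiquitin-like tag, and Usp18, which removes that tag, did not pass. Their estimates ran between -0.01 for Ifi44 and 0.58 for Usp18 in Cre-positive retinas, and between 0.19 for Ifi35 and 0.84 for Oas1a in Cre-negative retinas. Second probes of Isg15 (0.21 and 0.47), Oas1a (0.11 and 0.28), Xaf1 (0.04 and 0.15) and Lgals3bp (0.10 and -0.01) gave smaller changes than the brighter probes used here. Over all 10 members with 2 probes, the second probe gave the lower estimate for 9 in each genotype, and 8 of these second probes passed the filter.

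In the immunoproteasome, Psmb8, a catalytic subunit that replaces its constitutive counterpart Psmb5, stood at -2.46, -2.79, -2.56, -2.68 and -2.19 in Cre-positive crushed against -3.31, -3.15, -2.83, -2.92 and -2.95 in Cre-positive uncrushed retinas. In Cre-negative retinas Psmb8 stood at -2.70, -2.71 and -2.61 on crushed against -3.23, -3.52, -3.32 and -3.43 on uncrushed arrays. Groups did not overlap in either genotype, with the narrower gap in Cre-positive retinas. Psmb8 rose by 0.50 (1.41-fold, SE 0.10, adjusted p = 0.0294, call lost in 11 of 34 settings) in Cre-positive and by 0.70 (1.62-fold, SE 0.13, adjusted p = 0.0034) in Cre-negative retinas. The other catalytic subunits Psmb9 (0.32 and 0.40) and Psmb10 (0.20 and 0.25), and the activator subunits Psme1 (0.15 and 0.07) and Psme2 (0.14 and 0.13), did not pass in Cre-positive or Cre-negative retinas. With only the groups compared, Psmb9 and Psmb10 passed in Cre-negative retinas (limma adjusted p = 0.00681 and 0.0481). In Cre-positive retinas they then did not pass (adjusted p = 0.482 and 0.593). The 8 constitutive proteasome genes tested, among them Psmb5 at -0.00249 and 0.05, had medians of -0.06 and 0.02, and 0 of them passed in either genotype in limma, with an unadjusted p under 0.05 for 2 in Cre-positive and 0 in Cre-negative retinas.

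Peptide loading had the smallest median of the 7 roles in both genotypes, 0.17 in Cre-positive and 0.08 in Cre-negative retinas, and 0 of its 3 genes passed, with an unadjusted p under 0.05 in limma for 2 of them in Cre-positive and 0 in Cre-negative retinas. Tap1, one chain of the peptide transporter, stood at -2.10, -2.27, -2.09, -2.33 and -1.87 in Cre-positive crushed against -2.08, -2.28, -2.15, -2.09 and -2.36 in Cre-positive uncrushed retinas, and at -2.18, -2.05 and -2.24 in Cre-negative crushed against -2.35, -2.38, -2.23 and -2.38 in Cre-negative uncrushed retinas. Tap2, the partner chain, stood at -2.02, -2.003, -2.18, -1.92 and -1.62 in Cre-positive crushed against -2.29, -2.13, -2.09, -2.01 and -2.24 in Cre-positive uncrushed retinas, and at -2.13, -2.39 and -2.21 in Cre-negative crushed against -2.16, -2.28, -2.28 and -2.30 in Cre-negative uncrushed retinas. Groups overlapped for both genes in both genotypes. Their changes were 0.06 and 0.18 for Tap1 (adjusted p = 0.856 and 0.453) and 0.20 and 0.01 for Tap2 (adjusted p = 0.458 and 0.979), with the 95% interval of Tap2 in Cre-negative retinas reaching from -0.20 to 0.23. Psmb9, Tap1, Psmb8 and Tap2 follow each other on chromosome 17 with 0 genes between them, and their Cre-negative changes in that order were 0.40, 0.18, 0.70 and 0.01, so neighbours in this block had unlike estimates.

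Of the MHC class I genes, 3 passed in Cre-positive and 1 in Cre-negative retinas. This order depends on the spread that all 4 groups share in the fit. With only the groups compared, H2-K1, H2-D1 and H2-T23 passed in Cre-negative retinas (limma adjusted p = 0.00722, 0.0157 and 0.00257). In Cre-positive retinas they then did not pass (adjusted p = 0.11, 0.378 and 0.156), and neither did B2m (0.198). The values below are from the fit of all groups. H2-K1, a classical heavy chain, stood at -1.21, -1.37, -1.05, -1.42 and -0.71 in Cre-positive crushed against -1.64, -1.86, -1.64, -1.76 and -1.65 in Cre-positive uncrushed retinas. In Cre-negative retinas H2-K1 stood at -1.43, -1.48 and -1.47 on crushed against -1.84, -1.75, -1.83 and -1.91 on uncrushed arrays. Crushed and uncrushed arrays did not overlap in either genotype. H2-K1 rose by 0.56 in Cre-positive retinas (1.47-fold, SE 0.10, adjusted p = 0.00996), and its change of 0.37 in Cre-negative retinas did not pass (adjusted p = 0.147). Its second probe, well above background on all 17 arrays, gave smaller estimates of 0.37 in Cre-positive and 0.27 in Cre-negative retinas. H2-T23, which encodes Qa-1, the class I molecule that inhibits natural killer cells, stood at -2.41, -2.61, -2.60, -2.54 and -2.04 in Cre-positive crushed against -3.07, -2.83, -2.95, -2.70 and -2.96 in Cre-positive uncrushed retinas. In Cre-negative retinas H2-T23 stood at -2.57, -2.59 and -2.57 on crushed against -2.95, -3.08, -2.98 and -3.11 on uncrushed arrays. The 3 Cre-negative crushed arrays were nearly equal, and neither genotype had an overlap. H2-T23 rose by 0.46 (SE 0.09, adjusted p = 0.0214, call lost in 8 of 34 settings) in Cre-positive and by 0.45 (SE 0.11, adjusted p = 0.0382, call lost in 14 of 34 settings) in Cre-negative retinas.

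B2m, the light chain shared by all class I molecules, stood at -4.08, -4.15, -4.39, -4.14 and -3.88 in Cre-positive crushed against -4.55, -4.45, -4.42, -4.52 and -4.35 in Cre-positive uncrushed retinas, and at -4.30, -4.25 and -4.40 in Cre-negative crushed against -4.48, -4.54, -4.54 and -4.51 in Cre-negative uncrushed retinas. The lowest Cre-positive crushed array lay just within the uncrushed range, and the Cre-negative groups did not overlap. B2m rose by 0.33 in Cre-positive retinas (1.26-fold, SE 0.07, adjusted p = 0.0374), a call that was lost in 22 of 34 settings, and its change of 0.20 in Cre-negative retinas did not pass (adjusted p = 0.305). H2-D1, the other classical heavy chain, had an estimate of 0.41 in each genotype that did not pass (adjusted p = 0.13 and 0.171). Class I heavy chains are close paralogs whose probes may pick up each other's RNA, so the values of single H2 genes are uncertain.

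Counted by overlap, 7 members in Cre-positive retinas had all 5 crushed arrays above all 5 uncrushed ones (Gbp2, Irf9, Nlrc5, Bst2, Psmb8, H2-K1 and H2-T23), against 1.51% of all genes. In Cre-negative retinas 31 members had all 3 crushed arrays above all 4 uncrushed ones, against 8.8% of all genes. The 9 that did not were Gbp6, Irf7, Stat2, Trim25, Psme1, Psme2, Tap1, Tap2 and Tapbp, the last a chaperone of peptide loading. With Cre-positive uncrushed replicate 3 set aside, a choice made after its values were seen, 21 members had all Cre-positive crushed arrays above the 4 other uncrushed ones, against 2.24% of all genes.

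The second question was whether the crush response differed between mice with and without Cre. 0 of 40 members passed the test of the difference between the responses in limma, and 0 had an unadjusted p under 0.05, while 0.418% of all genes passed it and 8.38% had an unadjusted p under 0.05. The estimates, Cre-positive minus Cre-negative, ran between -0.59 for Ifi44 (95% interval -1.18 to 0.00369) and 0.23 for Oasl2 (-0.51 to 0.97), with a median of -0.06 against 0.00257 over all genes. For 37 of 40 members the estimate lay within 0.25 of 0, all 40 intervals included 0, and the median distance from an estimate to its bounds was 0.40. The interval was -0.53 to 0.29 for Gbp2, -0.81 to 0.64 for Nlrc5, -0.54 to 0.14 for Psmb8, -0.14 to 0.52 for H2-K1 and -0.29 to 0.31 for H2-T23. A smaller or larger response within these bounds was not detectable with these arrays, and the missed threshold does not show that the responses were equal.

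**Figure D3:**
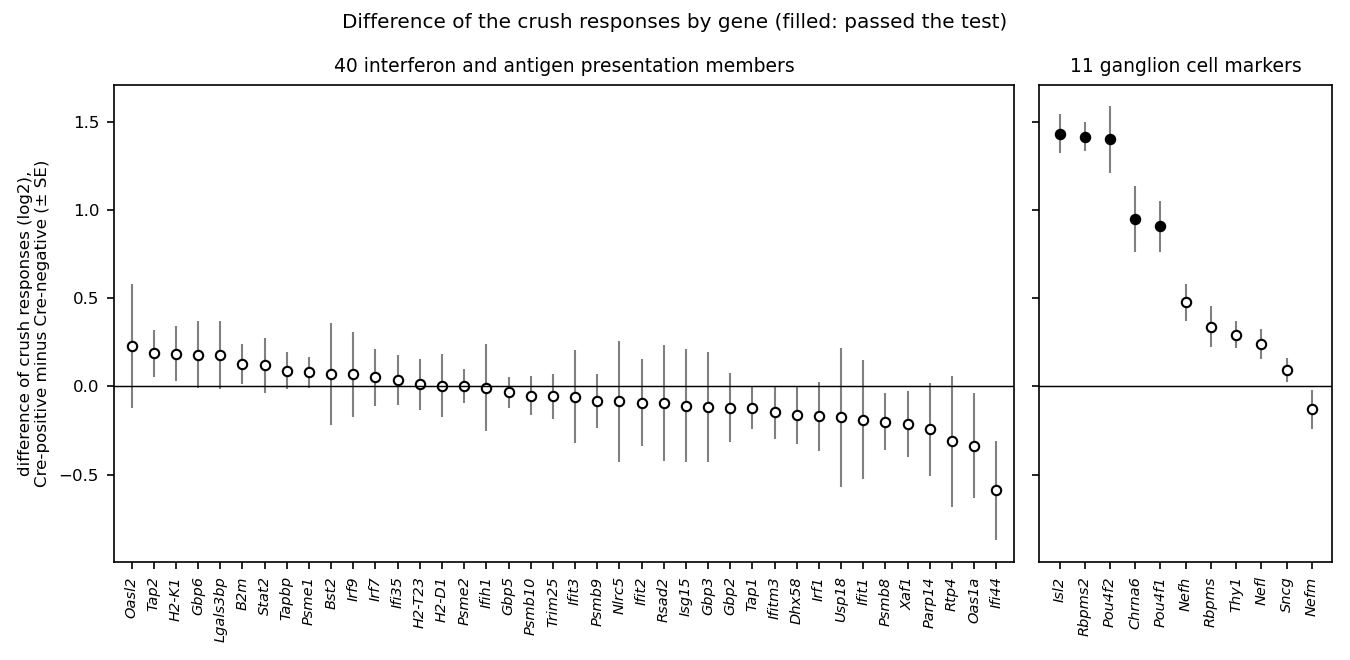
Difference of the crush responses, Cre-positive minus Cre-negative on the log2 scale with its standard error, for the 40 members (left) and for 11 ganglion cell markers (right), filled where the test was passed. The members lie between -0.59 and 0.23 around 0, and the 5 ganglion cell markers that passed lie between 0.91 and 1.43.

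Markers of retinal ganglion cells, the neurons whose axons are crushed, gave the comparison in the same fit. Of 11 such markers 5 passed the test of the difference as higher, with Isl2 at 1.43, Rbpms2 at 1.42, Pou4f2 at 1.40, Chrna6 at 0.95 and Pou4f1 at 0.91. After crush 3 of the 11 fell in Cre-positive retinas and 9 fell in Cre-negative ones. These markers and the members came from the same arrays, and the difference between the lists itself was not tested.

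The direct comparison of genotypes asked whether members differed at the same injury state. In crushed retinas 0 of 40 members passed as different between Cre-positive and Cre-negative, against 1.18% of all genes, and in uncrushed retinas 0 of 40 passed, against 0.0118% of all genes. The estimates were positive for 37 members in crushed (median 0.15) and 39 in uncrushed retinas (median 0.21), against 53.2% and 53.6% of all genes. Without Cre-positive crushed replicate 5 the median in crushed retinas was 0.05, and without Cre-positive uncrushed replicate 3 that in uncrushed retinas was 0.113. Within slides the median was 0.54 and 0.20 in crushed retinas (slides 2 and 3) and 0.151, 0.0708 and 0.0358 in uncrushed retinas (slides 2, 3 and 4). On these slides Cre-positive arrays were at positions 1 and 2 and Cre-negative ones at 3 and 4, so genotype and position cannot be told apart. Slide 1 held only Cre-positive arrays and slide 5 only Cre-negative ones. Unadjusted p was under 0.05 for 5 members in crushed retinas (Lgals3bp, Tap2, Tapbp, B2m and H2-K1) and for 8 in uncrushed retinas (Gbp2, Irf1, Dhx58, Oas1a, Xaf1, Rtp4, Ifi44 and Psmb8), against 13.9% and 5.57% of all genes. In uncrushed retinas the largest such estimates were 0.59 for Oas1a, a synthetase that activates RNase L, and 0.57 for Rtp4, a Golgi chaperone induced by type I interferon. Without Cre-positive uncrushed replicate 3 these differences of means were 0.44 for Oas1a and 0.36 for Rtp4, and those of Xaf1 and Ifi44 were 0.18 and 0.26, against 0.28 and 0.44 with it. The others moved less, to 0.30 for Irf1, 0.29 for Psmb8, 0.28 for Gbp2 and 0.22 for Dhx58. With that array they were 0.31, 0.34, 0.34 and 0.30. Without Cre-positive crushed replicate 5 the difference was 0.24 for Lgals3bp and 0.20 for H2-K1, against 0.37 and 0.31 with it, and 0.11 for Tapbp, against 0.17. It was 0.21 for Tap2 and 0.13 for B2m, against 0.29 and 0.19. All Cre-positive arrays were above all Cre-negative arrays for 2 members in crushed retinas (Lgals3bp and H2-K1), against 5.86% of all genes, and for 7 in uncrushed retinas (Irf1, Dhx58, Oas1a, Bst2, Xaf1, Rtp4 and Psmb9), against 1.29%. These genotype comparisons share arrays with the crush comparisons.

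The members did not vary alike between arrays. The median SD of a member was 0.289 in Cre-positive crushed, 0.192 in Cre-positive uncrushed, 0.106 in Cre-negative crushed and 0.086 in Cre-negative uncrushed retinas, while the median SD over all genes was 0.106, 0.107, 0.0859 and 0.0888 in the same groups. The members were thus more spread than a typical gene in Cre-positive retinas and about as tight in Cre-negative ones. Taken as the median difference of the 40 members from the mean of the Cre-negative uncrushed arrays, the Cre-positive crushed arrays stood at 0.621, 0.421, 0.50, 0.395 and 1.05. The Cre-positive uncrushed arrays stood at 0.145, 0.0604, 0.468, 0.185 and 0.0919. The Cre-negative crushed arrays stood at 0.439, 0.38 and 0.505, and the Cre-negative uncrushed ones lay between -0.0246 and 0.0396. Cre-positive crushed replicate 5 was by far the highest of all arrays, and Cre-positive uncrushed replicate 3 was the only uncrushed array within the crushed range.

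**Figure D4:**
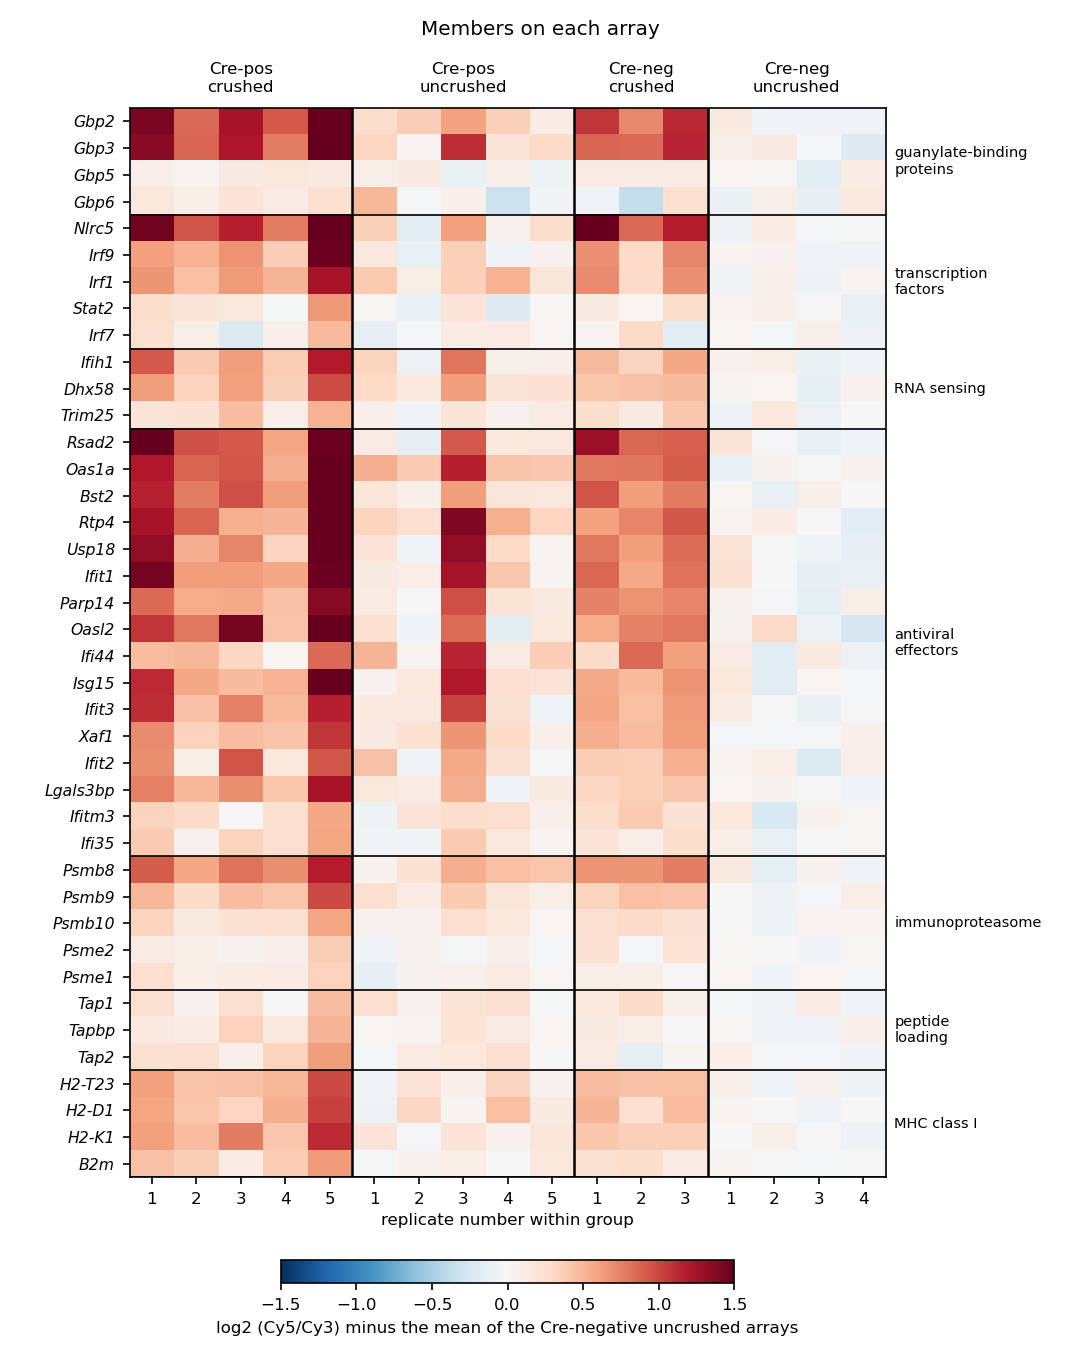
Difference of each member on each array from its mean over the Cre-negative uncrushed arrays (log2, red higher, blue lower, colour ending at 1.5), with members in rows by role and arrays in columns by group. Cre-positive crushed replicate 5 is red for nearly all members, and Cre-positive uncrushed replicate 3 is red for the antiviral effectors and pale for MHC class I.

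Cre-positive crushed replicate 5 had the highest value of its group in 37 of 40 members, with medians of 1.41 for antiviral effectors, 1.23 for transcription factors, 0.593 for the immunoproteasome and 1.01 for MHC class I. On the same array the median of lens markers was 1.18, against -0.173 to 0.0132 on the other 4 of the group, that of neutrophil and monocyte markers was 1.33, against 0.0142 to 0.534, and that of microglia and macrophage markers was 0.95, against 0.377 to 0.65. The part of these cells and tissues in the members' values was not tested.

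Cre-positive uncrushed replicate 3 had the highest value of its group in 29 of 40 members, and these were unevenly spread over the roles. It was the highest for 16 of 16 antiviral effectors and 3 of 3 genes of RNA sensing, but for 1 of 4 MHC class I genes and 1 of 3 of peptide loading. Its antiviral effectors had a median of 0.942, against 0.091 to 0.226 on the other 4 arrays of the group, while its MHC class I genes had 0.0903, within the -0.0345 to 0.20 of the other 4. For example, Isg15 stood at -1.59 there against -2.74 to -2.55 on the other 4, Usp18 at -2.64 against -4.03 to -3.67, and H2-T23 at -2.95 against -3.07 to -2.70. It was above the lowest Cre-positive crushed array for 15 of 16 antiviral effectors, 3 of 3 genes of RNA sensing and 3 of 3 of peptide loading, and for 0 of 4 MHC class I genes. This was not particular to it for peptide loading, for Trim25, or for the antiviral effectors Ifi44, Ifitm3, Ifit2, Rtp4 and Ifi35. For each of those genes another uncrushed array of the group was also above the lowest Cre-positive crushed array. Replicate 4 was also above that lowest value for Tap1 (-2.09 over -2.33), Tap2 (-2.01 over -2.18) and Tapbp (-1.321 over -1.336). On replicate 3 microglia and macrophage markers had a median of 0.21, against 0.0319 to 0.162 on the other 4, and lens markers -0.00314, against -0.138 to -0.00259. Neutrophil and monocyte markers were at 0.237 on it and cornea, iris and ciliary body markers at 0.13. Another array of the group, replicate 4, stood higher in these lists, at 0.976 and 1.4, and in retinal pigment epithelium markers, at 0.648, while its member median was 0.185. The part of these tissues in the members' values was not tested. The 25 other interferon-induced genes tested, which are not members, had 0.513 there, against 0.0346 to 0.238.

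**Figure D5:**
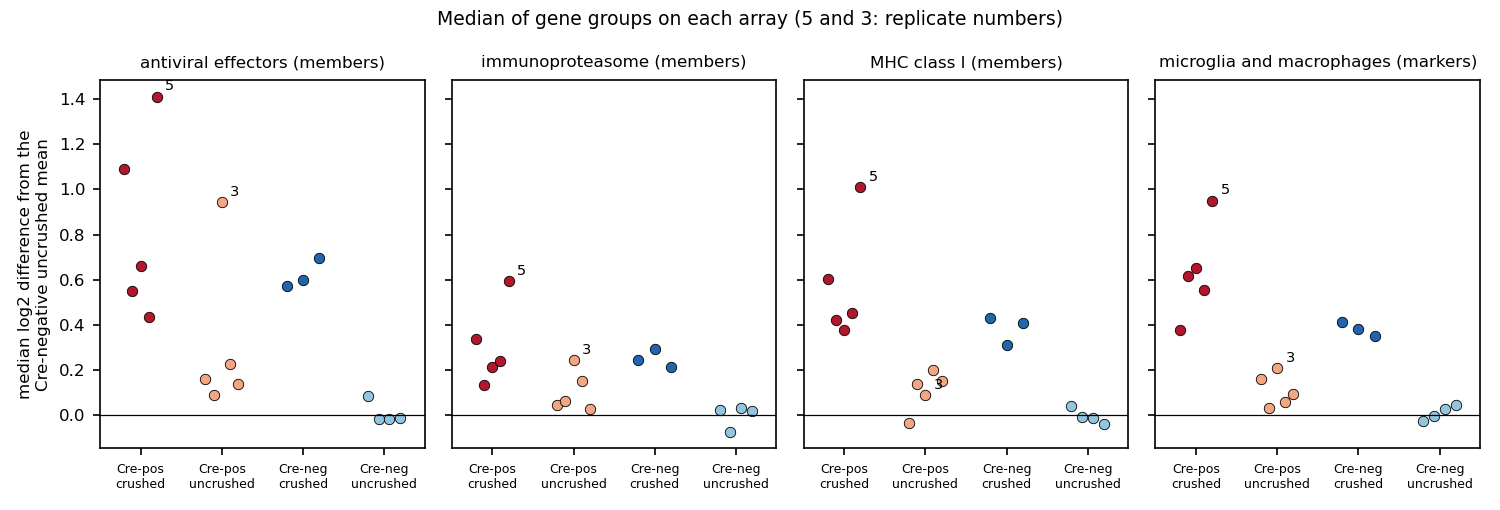
Median difference from the Cre-negative uncrushed mean (log2) on each array for 3 roles of the members and for markers of microglia and macrophages, with the groups Cre-positive crushed, Cre-positive uncrushed, Cre-negative crushed and Cre-negative uncrushed from left to right. Replicate 3 of the Cre-positive uncrushed group is at 0.942 for antiviral effectors and at 0.0903 for MHC class I, and replicate 5 of the Cre-positive crushed group is the highest array in all 4 panels.

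Without these 2 arrays, a setting chosen after their values were seen, 13 members passed as higher after crush in Cre-positive and 24 in Cre-negative retinas, and 0 passed the difference. Over all genes 0.508% and 2.7% passed after crush, in either direction. Fitting only the groups compared gave 1 member (Gbp2) in Cre-positive and 27 in Cre-negative retinas, against 0.205% and 3.01% of all genes in either direction. The counts of 7 and 6 above come from a fit in which all 4 groups share 1 estimate of the spread, and over the settings tried the median change of the members lay within 0.263 to 0.453 in Cre-positive and 0.357 to 0.519 in Cre-negative retinas, with the 0.263 reached without Cre-positive crushed replicate 5.

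The 5 slides held the groups unevenly, and crushed retinas were at even and uncrushed ones at odd positions of each slide, so crush and position cannot be told apart. Within slides the median member change after crush in Cre-positive retinas was 0.0818 on slide 1 (2 crushed and 2 uncrushed arrays, with uncrushed replicate 3 among them), 0.897 on slide 2 (with crushed replicate 5), 0.528 on slide 3 and 0.272 on slide 4, where slides 2 to 4 held 1 array of each kind. In Cre-negative retinas it was 0.495 on slide 2, 0.472 on slide 3 and 0.414 on slide 5. The estimate was positive for 27 to 40 members on the Cre-positive slides and for 38 or 39 on the Cre-negative ones. For Gbp2 the within-slide changes were 0.601, 1.30, 1.04 and 0.74 in Cre-positive and 1.18, 1.12 and 0.775 in Cre-negative retinas, all higher after crush. With slide as a fixed block 3 members passed in each genotype, against 0.745% of all genes in Cre-positive and 1.9% in Cre-negative retinas.

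Upstream of the members, several interferon genes gave little signal on these arrays. Ifnb1, Ifna4 and Ifng, which encode interferon beta, an interferon alpha and interferon gamma, were well above background on 0 arrays, and Ifne on 1, which bounds their level only from above. For listed ligand genes that passed the filter, the median difference from the Cre-negative uncrushed mean was -0.0389 to 0.0287 on Cre-positive crushed arrays. It was -0.089 to 0.107 on Cre-positive uncrushed, -0.0848 to -0.00954 on Cre-negative crushed and -0.0312 to 0.0463 on Cre-negative uncrushed arrays. Of the 9 receptor and kinase genes tested, 0 rose in Cre-positive and 1 in Cre-negative retinas, Ifnlr1, a subunit of the lambda interferon receptor, by 0.34 (adjusted p = 0.0371). Of 9 other STAT, IRF and inhibitor genes only Irf8, a factor of microglia and dendritic cells, rose, by 0.53 (adjusted p = 0.0238) and 0.55 (adjusted p = 0.0265). Of 10 other nucleic acid sensing genes 0 passed in either genotype, with medians of 0.11 and 0.15 and an unadjusted p under 0.05 in limma for 3 genes in each.

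Among the 25 other interferon-induced genes, 2 rose in Cre-positive and 1 in Cre-negative retinas. Cxcl10, a chemokine for T cells, rose by 2.42 in Cre-positive (SE 0.29, adjusted p = 0.000304) and by 2.34 in Cre-negative retinas (SE 0.35, adjusted p = 0.000549), more than any member. It was well above background on all 5 Cre-positive crushed and all 3 Cre-negative crushed arrays, against 2 of 5 Cre-positive uncrushed and 1 of 4 Cre-negative uncrushed arrays, so these changes rest partly on uncrushed signals that were not well above background. Ifi27l2a rose by 0.98 in Cre-positive retinas (adjusted p = 0.0131) and had an estimate of 0.85 in Cre-negative ones (adjusted p = 0.0531). Of the 9 other class I and loading genes 0 passed after crush, with an unadjusted p under 0.05 in limma for 5 in Cre-positive and 3 in Cre-negative retinas. Of the 6 MHC class II genes 0 passed, with an unadjusted p under 0.05 for 3 and 2. Between genotypes in crushed retinas, Pdia3, a thiol oxidoreductase of peptide loading, was higher by 0.40 in Cre-positive retinas (adjusted p = 0.028), and H2-Ab1, a class II chain, by 0.51 (adjusted p = 0.0479). Over all 78 tested genes of these pathway lists, 0 passed the difference of the responses in limma and 6 had an unadjusted p under 0.05.

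Microglia and macrophage markers were also higher after crush. Of 14 tested, 10 rose in Cre-positive retinas (median 0.55) and 4 in Cre-negative ones (median 0.38), led by C1qc at 0.87 and 0.64 and Aif1 at 0.89 and 0.84. Over all genes 0.666% and 1.34% passed as higher. The median changes of the members were 0.40 in Cre-positive and 0.45 in Cre-negative retinas, and whether markers and members varied together was not tested. By array their median ran from 0.377 to 0.95 in Cre-positive crushed and from 0.0319 to 0.21 in Cre-positive uncrushed retinas. It ran from 0.352 to 0.415 on the Cre-negative crushed arrays and from -0.0252 to 0.0449 on the uncrushed ones. Of 11 tested T, NK and B cell markers 0 rose in either genotype, Gzmb was well above background on 0 arrays, and 1, Klrb1c, fell in Cre-negative retinas, by 0.33. Of 10 Müller glia and astrocyte markers 3 rose in Cre-positive retinas (Vim, Gfap and Aldh1l1) and 1 fell (Glul), and 2 rose in Cre-negative ones (Vim and Gfap). The part of microglia number in the members' values was not tested.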

How the data were processed

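Retinal RNA (Cy5) and a mouse reference pool (Cy3) were hybridised to 2-colour Agilent arrays. The deposited scanner files hold intensity values of spot and local background and the log10 ratio of processed Cy5 over Cy3, made with Agilent Feature Extraction 10.7.3.1 per the file headers. The authors' deposited value table holds normalized ratios that its comparison with the scanner files showed to be log2 of Cy5 over Cy3 (r of 0.999 to 1 per array, and with each probe centred over the arrays 0.948 for Cre-positive uncrushed replicate 1 and 0.997 to 1 for the others, column medians 0.015 to 0.0237); limma is named in the submitters' processing notes, with a version and settings not given in the sources used here.

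Here median spot and background intensities were corrected with normexp (offset 50) and normalized by loess within each array. Control spots and outlier spots were left out, spots of a probe were averaged, and a probe was kept where 3 or more arrays had Cy5 signal well above background. A gene was read from its brightest probe, which left 25374 genes, of which those without a symbol were kept by probe. Accessions in the scanner files were named through RefSeq, which gave 26581 of 39429 probes a symbol. A model with 4 group means was fitted to 17 arrays with limma 3.58.1 in R 4.3.3 (with the data.table package, version 1.17.8). The tests were two-sided, with Benjamini-Hochberg adjustment over all genes for each of the 5 comparisons and a threshold of 0.05, and intervals are 95% intervals of the fit. The steps were tested on simulated data. The simulation gave each gene the same spread in all 4 groups and drew genes independently. It therefore does not bear on groups of unlike spread or on members that vary together.

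The members, the lists of other genes and the tests were chosen with earlier results of these data known. Values on each array are given for members past the threshold in a comparison and for the member of each role with the largest crush change in each genotype; genes of other lists are named where they passed, up to 4 per list and comparison. Psmb5, the interferon ligands and Isg15, Usp18 and H2-T23 on single arrays were named after their values were seen. Alternatives varied background, normalization, dye, filter, probes, slide, weights, the arrays fitted and the place of the array whose labels disagree. The sequences are RefSeq's.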

Additional observations from a re-analysis of the deposited data

Results flagged for a closer look

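Within groups of 4 or 5 arrays, the highest or lowest array was compared with the nearest of the others by Dixon's test, over 144 group and value combinations, of which chance would be expected to mark about 1 in 20. It marked 19. Cre-positive crushed replicate 5 stood above the others of its group for Irf1 (-1.24), Irf9 (1.24) and Psme2 (-0.50), log2 of Cy5 over Cy3. Cre-positive uncrushed replicate 3 stood above the others of its group for 10 members: Gbp3 (-0.22), Dhx58 (-0.67), Ifit3 (1.40), Isg15 (-1.59), Usp18 (-2.64), Oas1a (-3.50), Rsad2 (-1.38), Bst2 (-2.96), Rtp4 (-2.56) and Parp14 (0.10). On that array the median difference of the antiviral effectors from the Cre-negative uncrushed mean was 0.942, against 0.091 to 0.226 on the other 4 arrays.

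Among the Cre-negative uncrushed arrays, replicate 1 stood apart for Gbp2 (-1.77), Tap2 (-2.16) and the median of the antiviral effectors (0.0846), replicate 4 for Xaf1 (-2.06) and replicate 2 for the median of the immunoproteasome genes (-0.0717). These values are close to those of the other arrays in absolute terms, in a group whose spread was small. The Cre-negative array with labels that disagree, which enters no comparison, had a member median of 0.522, above the Cre-negative uncrushed arrays (-0.0246 to 0.0396), where the Cre-negative crushed arrays had 0.38 to 0.505. Ganglion cell markers had a median of -0.839 on it, against -0.792 to -0.656 on the Cre-negative crushed and -0.079 to 0.0346 on the uncrushed arrays. It was at position 4 of its slide. Its group was not set from these values.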

How the results depend on the processing

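No paired analysis was possible because the labels give no replicate numbers and tie no crushed eye to an uncrushed one. The replicate numbers used here were assigned by sample order. Under the alternatives tried, 0 values that had passed changed sign. Of the values that had not passed, 59 changed sign, in 15 of 65 named results, with adjusted p of 0.857 or more. Of these 45 were differences of the responses, whose member median ran from -0.153 to 0.0531 around its -0.06, 1 was Tap1 in Cre-positive retinas and 4 were Tap2 in Cre-negative retinas. 0 members passed the difference of the responses or either genotype comparison in limma (33 or 34 alternatives each). Counts of members higher after crush were less stable: 7 in Cre-positive and 6 in Cre-negative retinas became 3 and 3 with the scanner's processed signals, with Cy5 alone and with slide as a fixed block. Over all genes, 140 and 384 passed with the processed signals, 196 and 558 with Cy5 alone and 189 and 483 with the slide block, against 191 and 545. An offset of 16 gave 3 in Cre-negative retinas, slide as a random block 11 in Cre-positive retinas, and array weights 17 in Cre-negative retinas. With only the groups compared the counts were 1 and 27, and the Cre-positive call of Gbp2 alone was kept. With the array of disagreeing labels taken as uncrushed they were 0 and 0, and taken as crushed 13 in Cre-negative retinas. Without the 2 high arrays, chosen after seeing the data, they were 13 and 24. Leaving out each array in turn gave 3 to 11 in Cre-positive retinas, with 3 without crushed replicate 1 or uncrushed replicates 1, 2 or 5, 4 without uncrushed replicate 4, and 11 without uncrushed replicate 3 or crushed replicate 4. In Cre-negative retinas it gave 2 to 17, with 2 without Cre-negative crushed replicates 1 or 3 or uncrushed replicates 1 or 3, and 3 without Cre-negative uncrushed replicates 2 or 4 or Cre-positive uncrushed replicate 5. It gave 17 without Cre-positive crushed replicate 5 and 10 without Cre-positive uncrushed replicate 3. The cause was not tested. Over all genes, 191 called in Cre-positive retinas became 52 with only the groups compared and 10 with that array as uncrushed; 545 in Cre-negative retinas became 1185 with array weights and 73 with that array as uncrushed. In Cre-positive retinas the count was 110 and 116 without Cre-positive uncrushed replicates 2 and 5, and in Cre-negative retinas 330 and 335 without Cre-negative crushed replicates 1 and 3. Among named log2 values, 1990 kept both their sign and their side of the threshold, 121 that had passed no longer did and 27 came to pass. The 59 that changed sign passed neither before nor after. Adjusted p ranged from 0.000152 to 0.136 for Gbp2 in Cre-negative and from 0.000888 to 0.136 in Cre-positive retinas. Signal over background limits only Ifi44 among the members.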
